A study of Mus musculus with 6 samples.

Results

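Sarcomere, Z-disc and triad structural genes are the parts list of the contractile machinery of striated muscle, and 44 of them were followed here in inguinal white fat. They were taken from a fixed list of gene symbols, with 1 probe set per gene, namely the one with the highest mean over the 6 arrays among those annotated to that gene alone. Of the 44, 43 were measured, out of 18193 genes in all. Murc was found under its current symbol Cavin4, and Xirp2, an actin-binding protein of the Z-disc, had no probe set of its own in the annotation used and was not analysed here. The tissue is the subcutaneous fat depot of the groin.

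Male mice of both genotypes, 3 Naa10-KO and 3 wild type (WT), were each measured on an Affymetrix array. The Naa10 protein attaches acetyl groups to the N-termini of other proteins, and the title of the series asks whether it restrains heat production by beige adipocytes. All 6 mice received high-fat chow (60% of calories) for 15 weeks starting at 6 weeks of age, and all were kept at 4 °C for the last 4 h. The labels state neither how the Naa10-KO allele was made nor whether it is limited to a tissue, and no probe set carried the name Naa10, so the genotypes were not checked against the targeted transcript. Values are deposited log2 signals, scaled by the authors so that every array has the same trimmed mean. Differences are Naa10-KO minus WT from limma over all 18193 genes, with its moderated standard error (SE) and a Benjamini-Hochberg adjusted p over all of those genes. Signals below 5.86, the median over every probe set and array, are called low here (the low mark), since no detection calls were used. Where low values are said to be raised, each was set to that mark. Because an array probe's brightness depends on its sequence, the signal of each gene is compared with its own signal on other arrays. The sums of linear signals given below add genes all the same, so bright probe sets weigh most in them.

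In a sarcomere, thin filaments of actin, tropomyosin and troponin slide past thick filaments of myosin. Thin filaments are anchored at the Z-disc, thick filaments are cross-linked at the M-band, and titin spans from one to the other. At the triad, a voltage-gated calcium channel of the cell membrane meets the sarcoplasmic reticulum, and its movement opens the calcium store that starts contraction. Many of these proteins exist as fast-fibre, slow-fibre and cardiac isoforms made from separate genes. White fat has no sarcomeres, although its blood vessels hold smooth muscle, which uses some of the same proteins (desmin, tropomyosins) in another arrangement.

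Means of 40 of the 43 genes were higher in Naa10-KO than in WT fat, where 51.4% of all genes were. The median log2 difference over the 43 was 2.84, against 0.01 over all genes tested. For 26 of the 43 the mean was at least 4-fold higher in Naa10-KO, as it was in 1.63% of all genes. The lowest Naa10-KO array exceeded the highest WT array in 33 of the 43 genes (76.7%, against 10% of all genes), and none of the 43 had the opposite order (8.14% of all genes). The same shares of all genes stand beside the counts by role below. Signals were low on all 3 Naa10-KO arrays in 2 of the 43 genes (30.4% of all genes) and on all 3 WT arrays in 12 (30.6% of all genes). In bulk tissue, more cells that express these genes and more of their RNA per cell cannot be told apart.

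Past an adjusted p of 0.05 in limma, 2 of the 43 genes rose, Tpm1 and Ldb3, 0 fell and 41 did not pass. Over all genes 0.0879% were called higher and 0.0275% lower. At an unadjusted p under 0.05, 33 of the 43 were higher and 0 lower, against 4.85% and 4.35% of all genes. The number of members past the threshold ranged from 0 to 24 over the alternative settings, and was 0 when any array other than WT replicate 3 was left out. The 24 came with low values raised, which narrows the spread of low WT arrays, and 104 of 13264 genes were then called higher. Without WT replicate 3 the number of members was 10, against 29 higher calls over all genes. Tpm1 (adjusted p = 0.0388) but not Ldb3 (adjusted p = 0.0576) was among the 10. Without any other single array the adjusted p of Tpm1 lay between 0.117 and 0.180 and that of Ldb3 between 0.129 and 0.205.

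Markers of cells that could carry these transcripts were read on the same arrays. Non-structural markers of skeletal muscle (17 of 17 measured) had summed linear signals of 28567 to 41723 in Naa10-KO and 2072 to 3529 in WT. Without overlap, 11 had Naa10-KO above WT and 1 (Pax7, log2 difference -1.80) had it below, against 10% and 8.14% of all genes. Past the threshold, 2 rose and 0 fell. The 2 were Ampd1, the muscle AMP deaminase (log2 difference 3.72, SE 0.18, adjusted p = 0.0270), and Pvalb, the fast-fibre calcium buffer parvalbumin (log2 difference 3.92, SE 0.31, adjusted p = 0.0409). Myod1, a regulator that starts the muscle programme, was at 5.78, 5.53 and 5.86 in Naa10-KO and 4.30, 5.75 and 3.00 in WT, at or below the low mark, and Pax7, a marker of muscle stem cells, was below it on all 6 arrays. Myf6, the regulator of mature fibres, was at 9.04, 8.37 and 8.20 in Naa10-KO and 3.48, 1.47 and 1.01 in WT (adjusted p = 0.0736). The part of skeletal muscle tissue in these results was not tested.

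**Figure D1:**
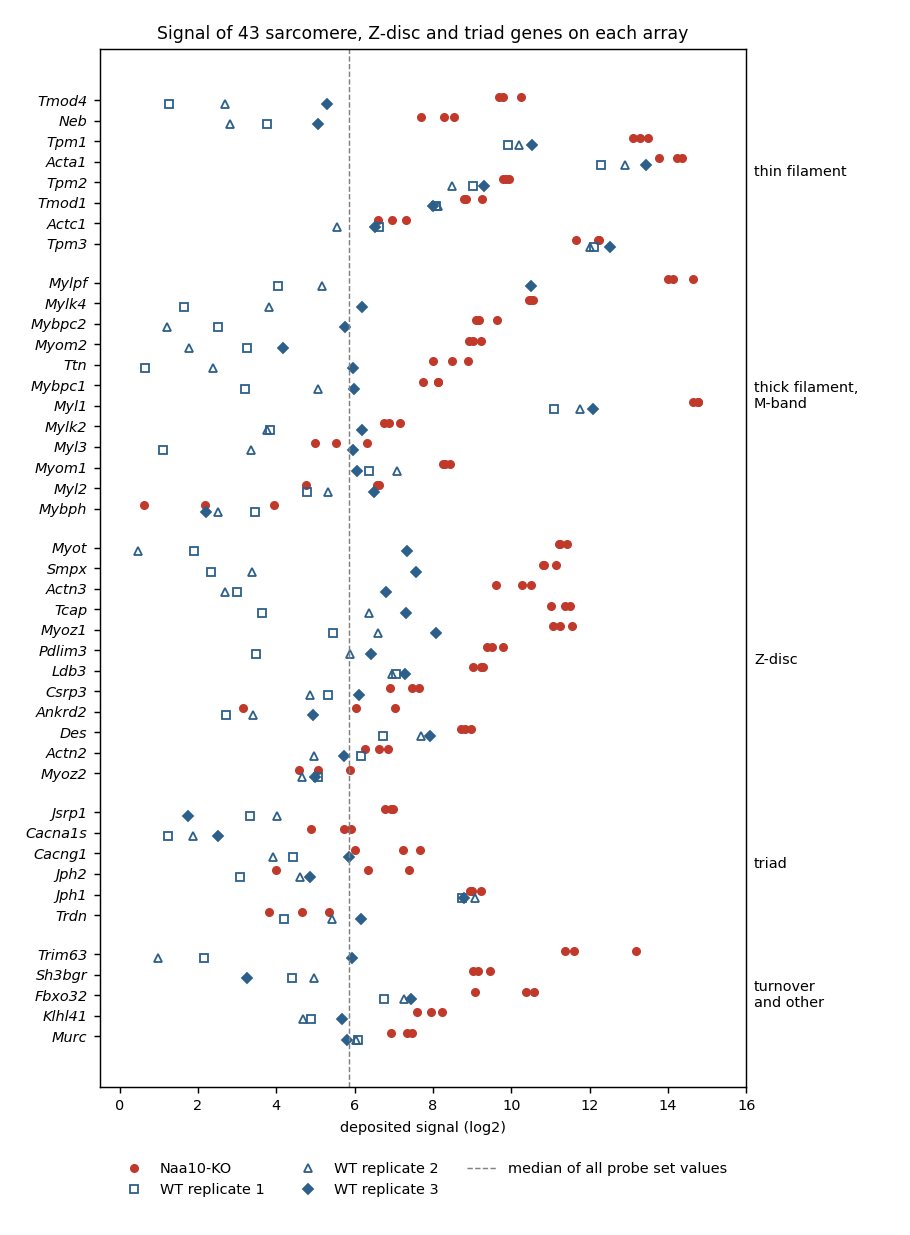
Deposited log2 signal (x axis) of the 43 measured genes on each array, with a row per gene, grouped by role and sorted by difference; filled circles are the 3 Naa10-KO arrays, squares, triangles and diamonds are WT replicates 1, 2 and 3, and the dashed line is the low mark, 5.86. In 33 of the 43 rows all circles lie to the right of all WT symbols, and in 33 rows the diamond of WT replicate 3 is the highest WT value.

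Promoters were available from RefSeq (GRCm38.p6, 250 bases before to 50 bases after a transcription start) for 31 of the 44 genes. Those of 6 genes are shown. Tpm1 and Ldb3 passed the test. Myl1, Mylpf and Acta1 were chosen as muscle light chains and actin, and Trim63 as a muscle ubiquitin ligase with a large difference. The 6 were picked after their values were seen. Ldb3 has a further start, whose promoter is not shown. Capitals mark each match, on either strand, of CAGCTG (the E-box form bound by the MyoD family of muscle regulators), of CATTCC (the MCAT element of TEAD factors), of the CArG box of serum response factor, and of the site of MEF2 factors.
Tpm1, chr9:67049164-67049463, - strand: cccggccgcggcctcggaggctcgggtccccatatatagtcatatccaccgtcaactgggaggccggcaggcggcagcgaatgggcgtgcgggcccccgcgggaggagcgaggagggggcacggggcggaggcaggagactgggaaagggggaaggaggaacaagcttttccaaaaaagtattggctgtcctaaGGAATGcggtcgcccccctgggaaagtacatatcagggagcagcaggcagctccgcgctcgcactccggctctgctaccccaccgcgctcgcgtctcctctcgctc
Ldb3, chr14:34588632-34588931, - strand: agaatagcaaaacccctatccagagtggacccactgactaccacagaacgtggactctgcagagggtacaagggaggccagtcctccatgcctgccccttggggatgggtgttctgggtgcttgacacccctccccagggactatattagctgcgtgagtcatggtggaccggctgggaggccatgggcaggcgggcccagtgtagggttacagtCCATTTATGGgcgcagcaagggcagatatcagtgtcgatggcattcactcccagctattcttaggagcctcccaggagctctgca
Myl1, chr1:66945007-66945306, - strand: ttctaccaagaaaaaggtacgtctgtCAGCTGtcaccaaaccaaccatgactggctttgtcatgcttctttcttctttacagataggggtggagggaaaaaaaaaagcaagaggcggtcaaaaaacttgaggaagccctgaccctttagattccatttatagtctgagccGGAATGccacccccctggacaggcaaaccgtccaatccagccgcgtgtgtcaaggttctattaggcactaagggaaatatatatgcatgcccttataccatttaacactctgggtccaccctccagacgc
Mylpf, chr7:127211358-127211657, + strand: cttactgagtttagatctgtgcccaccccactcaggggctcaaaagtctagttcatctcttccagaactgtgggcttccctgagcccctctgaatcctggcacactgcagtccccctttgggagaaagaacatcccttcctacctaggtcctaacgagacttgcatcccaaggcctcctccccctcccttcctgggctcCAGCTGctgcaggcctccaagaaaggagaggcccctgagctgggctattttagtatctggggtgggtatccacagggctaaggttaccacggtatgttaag
Trim63, chr4:134314870-134315169, + strand: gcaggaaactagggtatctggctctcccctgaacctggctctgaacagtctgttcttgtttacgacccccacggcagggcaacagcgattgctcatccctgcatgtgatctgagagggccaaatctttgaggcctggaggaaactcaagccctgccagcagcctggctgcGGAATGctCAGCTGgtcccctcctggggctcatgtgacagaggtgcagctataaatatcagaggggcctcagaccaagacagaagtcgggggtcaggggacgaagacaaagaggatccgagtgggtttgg
Acta1, chr8:123894726-123895025, - strand: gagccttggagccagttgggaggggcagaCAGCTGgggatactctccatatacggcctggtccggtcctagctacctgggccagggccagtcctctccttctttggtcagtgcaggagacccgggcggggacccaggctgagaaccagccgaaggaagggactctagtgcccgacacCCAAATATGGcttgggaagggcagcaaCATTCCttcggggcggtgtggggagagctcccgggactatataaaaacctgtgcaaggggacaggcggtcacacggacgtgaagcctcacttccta
CAGCTG was present in the promoters of 16 of the 31 genes (51.6%), against 18.3% of all 27025 genes with a promoter. CATTCC was present in 11 of the 31 (35.5%, against 16.6%), the CArG box in 5 (16.1%, against 1.81%) and the MEF2 site in 5 (16.1%, against 3.70%). The broader E-box CANNTG, which contains CAGCTG, was present in 28 of the 31 and in 75.0% of all genes, and the TATA box TATAAA in 8 of the 31 (25.8%, against 15.7%). Among the 6 printed, Trim63 and Myl1 both held CATTCC at bases -80 to -75 from the start, and Trim63 also held CAGCTG at -72 to -67. Mylpf held CAGCTG at -51 to -46. Further upstream, CAGCTG stood at -224 to -219 in Myl1 and at -221 to -216 in Acta1. Acta1 also held a CArG box at -73 to -64 and CATTCC at -46 to -41, Ldb3 held a CArG box at -35 to -26, and Tpm1 held CATTCC at -56 to -51. These matches describe letters in a window and do not show that a factor binds.

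Among the 8 genes of the thin filament, 7 means were higher in Naa10-KO, 6 genes had groups that did not overlap, and the median log2 difference was 1.08. Tpm1, a tropomyosin that lies along actin and is made in muscle and many other cells, rose (probe set 1423049_a_at). Its log2 signals were 13.28, 13.12 and 13.48 on the Naa10-KO arrays, against 9.92, 10.20 and 10.52 on the WT arrays (log2 difference 3.08, SE 0.21, adjusted p = 0.0408, 8.47-fold). All 6 arrays were well above the low mark, and the gap between the genotypes was several times the spread within either. Acta1, the actin of skeletal muscle fibres, had log2 signals of 13.78, 14.23 and 14.37 in Naa10-KO and 12.30, 12.92 and 13.45 in WT (log2 difference 1.24, SE 0.35, adjusted p = 0.473). It was thus bright on every array, WT included, and its highest WT array came close to its lowest Naa10-KO array. Actc1, the cardiac actin that adult skeletal muscle makes at low level, was at 6.60, 6.96 and 7.32 in Naa10-KO and 6.63, 5.55 and 6.51 in WT, and the groups overlapped (log2 difference 0.73, SE 0.36, adjusted p = 0.597).

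The tropomyosins differed from one another. Tpm2, the tropomyosin of skeletal and smooth muscle, was at 9.78, 9.87 and 9.93 in Naa10-KO and 9.03, 8.49 and 9.30 in WT (log2 difference 0.92, SE 0.24, adjusted p = 0.440). Tpm3, which makes a slow-fibre tropomyosin and cytoskeletal forms found in most cells, was at 11.66, 12.23 and 12.25 in Naa10-KO, against 12.12, 12.01 and 12.52 in WT (log2 difference -0.17, SE 0.24, adjusted p = 0.841). The groups of Tpm3 overlapped, and its difference turned to 0.02 without Naa10-KO replicate 1.

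Tropomodulins cap the free end of the thin filament. Tmod4, the skeletal muscle form, was at 9.78, 9.69 and 10.25 on the Naa10-KO arrays, against 1.27, 2.70 and 5.30 on the WT arrays (log2 difference 6.81, SE 1.04, adjusted p = 0.167). All its WT arrays were low and spread over 4.03 log2 units, the widest range among thin filament genes, and the difference after raising was 4.05. Tmod1, the form of heart, red cells and many other tissues, was at 8.84, 8.80 and 9.26 in Naa10-KO and 8.08, 8.14 and 8.0 in WT (log2 difference 0.89, SE 0.18, adjusted p = 0.282), with a range of 0.14 over the WT arrays. Neb, the giant protein nebulin that runs along the thin filament, was at 8.53, 8.29 and 7.69 in Naa10-KO and 3.77, 2.81 and 5.05 in WT (log2 difference 4.29, SE 0.61, adjusted p = 0.146), and the difference was 2.31 with low values raised.

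**Figure D2:**
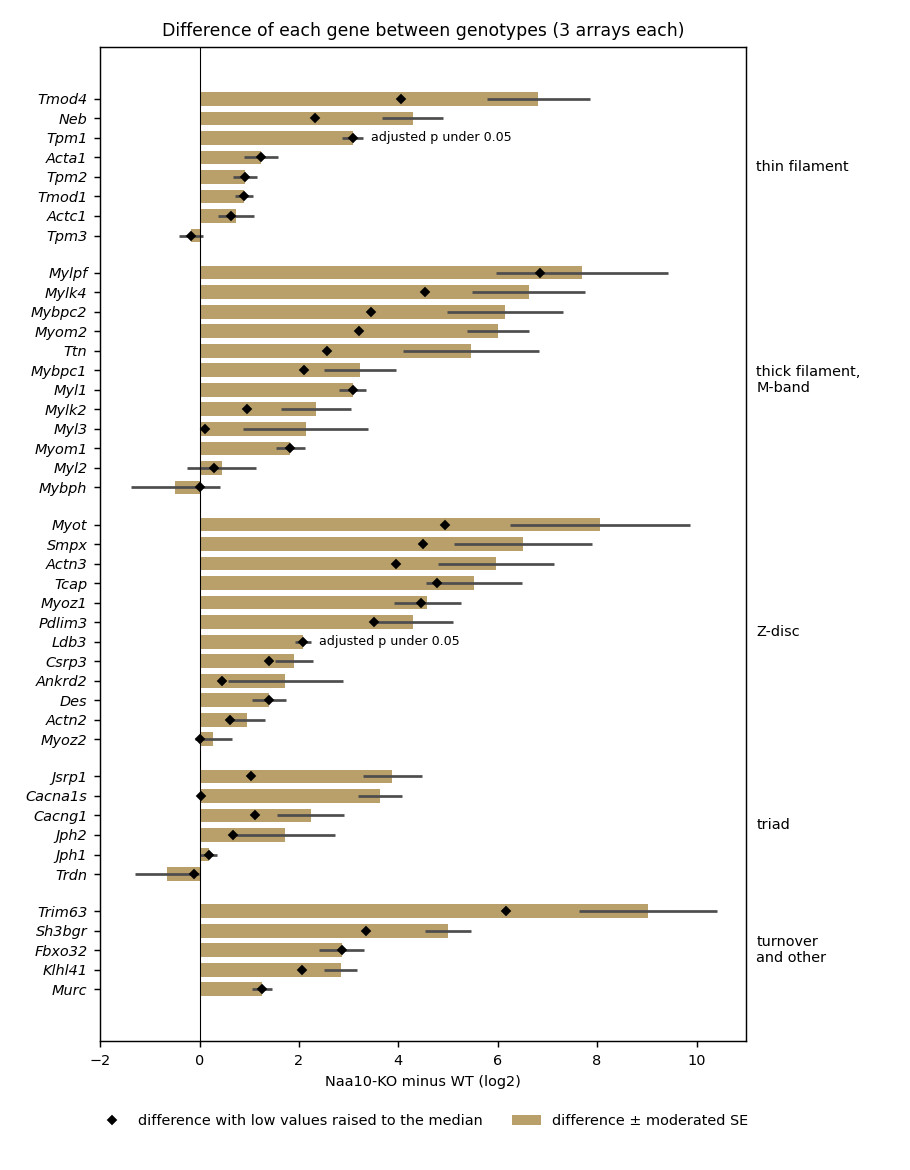
Log2 difference, Naa10-KO minus WT (x axis), of each of the 43 genes, grouped by role; bars give the difference from limma with its moderated SE (3 arrays per genotype) and diamonds the difference after low values were raised to the low mark. Trim63 has the longest bar at 9.02, bars for Tpm3, Mybph and Trdn lie below 0, and Tpm1 and Ldb3 carry the mark of an adjusted p under 0.05.

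Of the 12 genes of the thick filament and M-band, 11 means were higher in Naa10-KO and 9 genes had groups that did not overlap, with a median log2 difference of 3.16 and 0 genes past the threshold. Myl1, the essential light chain of fast myosin, had log2 signals of 14.63, 14.77 and 14.77 in Naa10-KO and 11.10, 11.75 and 12.08 in WT (log2 difference 3.08, SE 0.28, adjusted p = 0.0530). Its Naa10-KO arrays lay within 0.14 log2 units of each other, and its adjusted p was just above the threshold. Mylpf, the regulatory light chain of fast myosin, was at 14.13, 14.01 and 14.65 in Naa10-KO, against 4.03, 5.18 and 10.50 in WT (log2 difference 7.69, SE 1.73, adjusted p = 0.356). WT replicate 3 was bright for Mylpf while WT replicates 1 and 2 were low, and without WT replicate 3 the difference was 9.66 with an adjusted p of 0.0317. Without any other single array, the count of called genes in the whole table was 0.

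Light chains of slow fibres and heart were measured as well. Myl2, the regulatory light chain of slow fibres and heart ventricle, was at 6.63, 6.57 and 4.76 in Naa10-KO and 4.79, 5.32 and 6.49 in WT (log2 difference 0.45, SE 0.69, adjusted p = 0.851). Myl3, the matching essential light chain, was at 6.31, 4.98 and 5.52 in Naa10-KO and 1.09, 3.35 and 5.96 in WT (log2 difference 2.13, SE 1.26, adjusted p = 0.639). Both overlapped between genotypes, and the difference of Myl3 shrank to 0.12 with low values raised. Another probe set of Myl3 differed by 4.76 (SE 0.45, adjusted p = 0.0934 over all probe sets).

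Kinases and binding proteins act on or along the thick filament. Mylk2, the light chain kinase of skeletal muscle, was at 7.16, 6.88 and 6.75 in Naa10-KO and 3.83, 3.76 and 6.19 in WT (log2 difference 2.34, SE 0.71, adjusted p = 0.484), so the highest WT array came within 1 log2 unit of the Naa10-KO arrays. Mylk4, a related kinase of striated muscle, was at 10.56, 10.46 and 10.50 in Naa10-KO and 1.65, 3.82 and 6.18 in WT (log2 difference 6.62, SE 1.13, adjusted p = 0.210). Mybpc2, the fast-fibre form of myosin-binding protein C, was at 9.10, 9.62 and 9.18 in Naa10-KO and 2.50, 1.22 and 5.74 in WT (log2 difference 6.15, SE 1.17, adjusted p = 0.260). Its slow-fibre counterpart Mybpc1, which fast fibres also make, differed less. Mybpc1 was at 8.12, 7.74 and 8.13 in Naa10-KO and 3.21, 5.07 and 5.99 in WT (log2 difference 3.24, SE 0.72, adjusted p = 0.354). Mybph, myosin-binding protein H, was low on all 6 arrays, at 0.62, 3.93 and 2.17 in Naa10-KO and 3.45, 2.52 and 2.20 in WT (log2 difference -0.48, SE 0.89, adjusted p = 0.876), so its difference is one between low signals.

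M-band and titin signals were higher in Naa10-KO without overlap. Myom1 and Myom2 encode myomesins, which cross-link thick filaments at the M-band. Myom2 was at 9.23, 8.93 and 9.02 in Naa10-KO and 3.24, 1.76 and 4.18 in WT (log2 difference 6.00, SE 0.62, adjusted p = 0.0691). Myom1 was at 8.26, 8.43 and 8.30 in Naa10-KO and 6.37, 7.08 and 6.05 in WT (log2 difference 1.83, SE 0.29, adjusted p = 0.183), with all arrays above the low mark. Ttn, titin, was at 8.89, 8.5 and 8.01 in Naa10-KO and 0.65, 2.39 and 5.97 in WT (log2 difference 5.46, SE 1.37, adjusted p = 0.420), with WT arrays 5.32 log2 units apart, so its SE is large.

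The 12 measured genes of the Z-disc were all higher on average in Naa10-KO, 10 of them without overlap, and their median log2 difference was 3.19. Ldb3, the PDZ-LIM protein that binds α-actinin, rose (probe set 1433783_at). Its log2 signals were 9.29, 9.23 and 9.02 in Naa10-KO and 7.06, 6.94 and 7.28 in WT (log2 difference 2.09, SE 0.16, adjusted p = 0.0409, 4.24-fold). The 3 WT arrays agreed within 0.34 log2 units, and the lowest Naa10-KO array was above the highest WT array by more than that range.

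Several Z-disc genes were near or below the low mark in WT replicates 1 and 2 and bright in all Naa10-KO arrays. Actn3, the α-actinin of fast fibres, was at 9.62, 10.26 and 10.51 in Naa10-KO and 2.98, 2.69 and 6.81 in WT (log2 difference 5.97, SE 1.17, adjusted p = 0.268). Myoz1, the fast-fibre member of the calcineurin-binding myozenins, was at 11.25, 11.07 and 11.55 in Naa10-KO and 5.46, 6.59 and 8.08 in WT (log2 difference 4.58, SE 0.68, adjusted p = 0.159). Myot, which cross-links actin at the Z-disc, was at 11.25, 11.21 and 11.42 in Naa10-KO and 1.90, 0.46 and 7.33 in WT (log2 difference 8.06, SE 1.81, adjusted p = 0.354). WT replicate 3 was the brightest WT array in all 3 of these genes, and in Myot it lay over 5 log2 units above the other WT arrays, which gave the widest WT range of all 43 genes at 6.87. Tcap, the titin cap telethonin, was at 11.36, 11.01 and 11.51 in Naa10-KO and 3.63, 6.37 and 7.32 in WT (log2 difference 5.52, SE 0.97, adjusted p = 0.220). Log2 differences were 6.50 for Smpx, a small protein of striated muscle, and 4.30 for Pdlim3, an α-actinin-binding protein, with WT ranges of 5.25 and 2.93.

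Other Z-disc genes have slow-fibre, cardiac or wider expression. Actn2, the α-actinin of all striated muscle, was at 6.84, 6.26 and 6.62 in Naa10-KO and 6.15, 4.95 and 5.72 in WT (log2 difference 0.97, SE 0.36, adjusted p = 0.532). Myoz2, the slow-fibre and cardiac myozenin, was at 5.89, 4.58 and 5.06 in Naa10-KO and 5.06, 4.65 and 4.99 in WT (log2 difference 0.28, SE 0.37, adjusted p = 0.826), and the difference turned to -0.08 without Naa10-KO replicate 1. Des, the intermediate filament desmin that smooth muscle also makes, was at 8.97, 8.72 and 8.83 in Naa10-KO and 6.72, 7.69 and 7.92 in WT (log2 difference 1.40, SE 0.35, adjusted p = 0.414). Groups of Myoz2 overlapped, whereas those of Actn2 and Des did not. Csrp3, the muscle LIM protein of heart and slow fibres, had a log2 difference of 1.90 without overlap. Ankrd2, a stretch-responsive ankyrin repeat protein of slow fibres, was at 7.04, 6.04 and 3.15 in Naa10-KO and 2.71, 3.42 and 4.94 in WT (log2 difference 1.72, SE 1.16, adjusted p = 0.671), so the Naa10-KO arrays themselves spread over 3.89 log2 units.

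**Figure D3:**
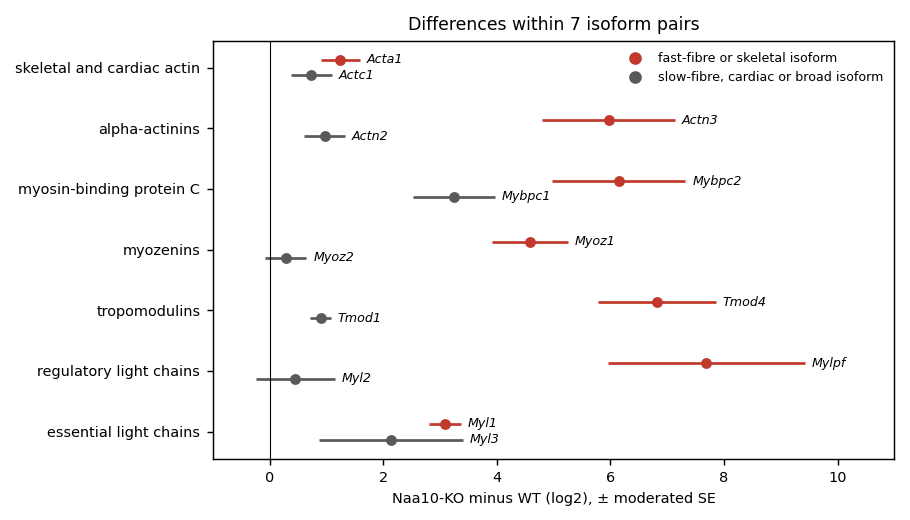
Log2 difference, Naa10-KO minus WT (x axis), with its moderated SE for the genes of 7 isoform pairs; red points are the fast-fibre or skeletal muscle gene and grey points its slow-fibre, cardiac or broadly expressed partner. Every grey gene but Tmod1 was low on some arrays. The junctophilins Jph1 (0.18) and Jph2 (1.73), which had the opposite order, are not among the pairs. The red point lies to the right of the grey one in 7 of 7 pairs for the probe sets used and all 6 arrays, by 0.51 for the actins and by 7.24 for the regulatory light chains; the order of Myl1 and Myl3 turned without WT replicate 3 and with another probe set of Myl3.

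Set against their partners, the fast-fibre or skeletal genes had the larger difference in 7 of 7 isoform pairs by the probe sets used. Every partner but Tmod1 was low on some arrays. Myoz2 was low on 3 WT and 2 Naa10-KO arrays, Myl3 on 2 and 2, and Myl2 on 2 and 1. Differences of these partners are thus partly between low signals. The order of Myl1 and Myl3 turned without WT replicate 3 (3.30 for Myl1 and 3.38 for Myl3), and another probe set of Myl3 had a larger difference (4.76, SE 0.45) than Myl1. The gap between the log2 differences was 7.24 for Mylpf over Myl2, 5.92 for Tmod4 over Tmod1, 5.0 for Actn3 over Actn2, 4.30 for Myoz1 over Myoz2 and 2.91 for Mybpc2 over Mybpc1. It was 0.95 for Myl1 over Myl3 and 0.51 for Acta1 over Actc1, where SEs overlap. These gaps were not tested, since the pairs were set with the earlier results known. The junctophilins were not among the pairs and had the opposite order. Jph1, the skeletal muscle form, differed by 0.18, and Jph2, the form of heart and other muscle, by 1.73. Both had groups that overlapped, and Jph2 was low on some arrays. The fixed list of myosin heavy chains and troponins had 13 of 13 measured, 0 past the threshold and a median log2 difference of 1.32. Without overlap, 5 had Naa10-KO above WT and 0 below, against 10% and 8.14% of all genes. Tnni2, the inhibitory troponin of fast fibres, was at 13.82, 13.72 and 14.14 in Naa10-KO and 2.58, 3.14 and 9.70 in WT (log2 difference 8.76, SE 1.97, adjusted p = 0.357). Tnnc2, the calcium-binding troponin of fast fibres, differed by 7.47 (SE 1.70, adjusted p = 0.361).

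The 6 triad genes were the most mixed group, with 3 that did not overlap, 3 that did and a median log2 difference of 1.98, which was 0.43 with low values raised. Cacna1s, the voltage-sensing calcium channel of skeletal muscle, was at 4.88, 5.92 and 5.74 in Naa10-KO and 1.23, 1.88 and 2.52 in WT (log2 difference 3.64, SE 0.44, adjusted p = 0.101). Of these 6 arrays, 1 Naa10-KO array reached the low mark, and with low values raised the difference was 0.02. Cacng1, its γ subunit, was at 6.01, 7.23 and 7.68 in Naa10-KO and 4.44, 3.91 and 5.86 in WT (log2 difference 2.24, SE 0.67, adjusted p = 0.483). Jsrp1, a junctional protein that binds calsequestrin and the calcium channel, was at 6.94, 6.78 and 6.98 in Naa10-KO and 3.32, 4.01 and 1.73 in WT (log2 difference 3.88, SE 0.60, adjusted p = 0.168). WT replicate 3, the brightest WT array for most of the genes, was the dimmest for Jsrp1.

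Junctophilins tie the cell membrane to the sarcoplasmic reticulum. Jph1, the skeletal muscle form, was at 8.93, 8.99 and 9.22 in Naa10-KO and 8.73, 9.07 and 8.79 in WT (log2 difference 0.18, SE 0.17, adjusted p = 0.747), bright on all arrays with groups that overlapped. Jph2, the form of heart and other muscle, was at 4.00, 6.34 and 7.39 in Naa10-KO and 3.08, 4.60 and 4.87 in WT (log2 difference 1.73, SE 1.0, adjusted p = 0.634), also overlapping. Trdn, triadin, which links calsequestrin to the calcium release channel, was at 5.34, 3.82 and 4.67 in Naa10-KO and 4.19, 5.42 and 6.17 in WT (log2 difference -0.65, SE 0.64, adjusted p = 0.758) by the probe set used. Of the fixed list of other triad and sarcoplasmic reticulum genes, 20 of 20 were measured, 1 rose, 0 fell, and the median log2 difference was 0.77. Without overlap, 9 had Naa10-KO above WT and 1 (Cacna2d1) had it below, against 10% and 8.14% of all genes. The gene that rose was Srl, the calcium-binding protein sarcalumenin, at 9.43, 9.45 and 9.96 in Naa10-KO and 7.17, 7.14 and 7.43 in WT (log2 difference 2.37, SE 0.21, adjusted p = 0.0482). Tmem38a, a cation channel of the sarcoplasmic reticulum, differed by 2.31 (SE 0.24, adjusted p = 0.0691).

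By the probe sets used, all 5 genes of protein turnover and other roles had Naa10-KO arrays above WT arrays without overlap, and 0 passed the threshold. Trim63, the ubiquitin ligase MuRF1 that marks thick filament proteins for breakdown in muscle, had the largest log2 difference of all 18193 genes on the values as deposited, a rank that rests on low WT signals. Its log2 signals were 13.18, 11.60 and 11.36 in Naa10-KO and 2.16, 0.98 and 5.93 in WT (log2 difference 9.02, SE 1.38, adjusted p = 0.167). Naa10-KO replicate 1 was the brightest, WT replicates 1 and 2 were far below the low mark, and after raising the difference was 6.17, below that of Mylpf (6.86) and of the fast troponins Tnnc2 (6.89) and Tnni2 (6.76). Fbxo32, the muscle ubiquitin ligase subunit atrogin-1, was at 10.58, 10.39 and 9.08 in Naa10-KO and 6.76, 7.26 and 7.44 in WT (log2 difference 2.86, SE 0.46, adjusted p = 0.183), with all arrays above the low mark. Naa10-KO replicate 3 was the lowest Naa10-KO array for both ligase genes.

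Sh3bgr, a small protein abundant in striated muscle, was at 9.01, 9.15 and 9.46 in Naa10-KO and 4.41, 4.97 and 3.24 in WT (log2 difference 5.0, SE 0.47, adjusted p = 0.0578), the smallest adjusted p of this group. It passed in 7 of 16 alternative settings. Klhl41, a ubiquitin ligase adaptor that stabilises nebulin, was at 7.59, 7.95 and 8.22 in Naa10-KO and 4.88, 4.67 and 5.68 in WT (log2 difference 2.84, SE 0.33, adjusted p = 0.0954). Murc, a caveolar coat protein of muscle, was at 7.48, 6.93 and 7.34 in Naa10-KO and 6.09, 6.04 and 5.82 in WT (log2 difference 1.27, SE 0.20, adjusted p = 0.181), with a WT range of only 0.28. The other sarcomere and costamere genes of a fixed list (29 of 31 measured) had 0 past the threshold and a median log2 difference of 0.56. Without overlap, 11 had Naa10-KO above WT and 2 had it below, against 10% and 8.14% of all genes. Smyd1, a muscle methyltransferase needed for sarcomere assembly, differed by 1.79 (adjusted p = 0.109) and Cap2, an actin-binding protein, by 1.98 (adjusted p = 0.136).

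Spread among the WT arrays was wide. The range over the 3 WT arrays had a median of 1.79 log2 units over the 43 genes, against a median of 0.57 over the Naa10-KO arrays for the same genes and 0.58 over the WT arrays for all genes. Ranges grow at low signal, so the 28 genes with a low WT mean are better set against all genes of that kind, whose median WT range was 1.88 against 2.35 for the 28. For the 15 genes above that mark the median WT range was 0.81, against 0.37 for all such genes. The WT range was wider than the Naa10-KO range in 34 of the 43 genes (79.1%, against 48.8% of all genes). The log2 difference exceeded the WT range in 31 of the 43 (72.1%, against 11.2% of all genes).

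WT replicate 3 was the highest WT array in 33 of the 43 genes (76.7%, against 36.9% of all genes), and WT replicates 1 and 2 in 5 each. Median deviations of the 43 genes from their genotype mean were -0.04, -0.05 and 0.08 log2 units on Naa10-KO replicates 1 to 3, against -0.59, -0.20 and 0.69 on WT replicates 1 to 3. Over all genes those medians lay between -0.01 and 0.02. Of the 43 genes, 4, 4 and 7 were low on the Naa10-KO arrays, against 29, 28 and 14 on the WT arrays. In 14 genes WT replicate 3 was the only WT array above that mark, against 336 of all 18193 genes. Low signals on each single array were not counted over all genes. Summed over the 43 genes on the linear scale, signals were 102052, 101868 and 117890 on the Naa10-KO arrays and 14935, 19057 and 28412 on the WT arrays.

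On the linear scale, the 32 genes with Naa10-KO above WT and all Naa10-KO arrays above the low mark had WT signals at a median of 6.36%, 10.6% and 14.9% of their Naa10-KO mean on WT replicates 1 to 3. This choice of genes places every WT signal below the Naa10-KO mean in advance, so that order is no result. It also favours low percentages, so these medians and the counts under 1% below describe only the chosen genes. Genes with overlapping groups were left out, among them Trdn at 270% and Tpm3 at 136% on WT replicate 3. WT replicate 3, the highest WT array in 36.9% of all genes, had the highest of the 3 percentages in 26 of the 32. Percentages were far from uniform within an array. On WT replicate 3 they ran from 1.22% for Trim63 to 68.0% for Tpm2, and on WT replicate 1 from 0.0818% for Mylpf to 73.6% for Actn2. Under 1% of the Naa10-KO mean were 10 genes on WT replicate 1, 9 on WT replicate 2 and 0 on WT replicate 3. Percentages made from signals below the low mark have little meaning beyond being small. Of genes bright on every array, Myl1 stood at 8.10%, 12.7% and 16% on WT replicates 1 to 3, Tpm1 at 9.59%, 11.6% and 14.6%, and Ldb3 at 23.0%, 21.1% and 26.7%. Others bright on every array stood higher, with Acta1 at 27.7%, 42.5% and 61.5%, Tpm2 at 56.3%, 38.7% and 68.0%, Tmod1 at 53.5%, 55.9% and 50.6%, and Des at 22.9%, 45.1% and 52.8%.

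**Figure D4:**
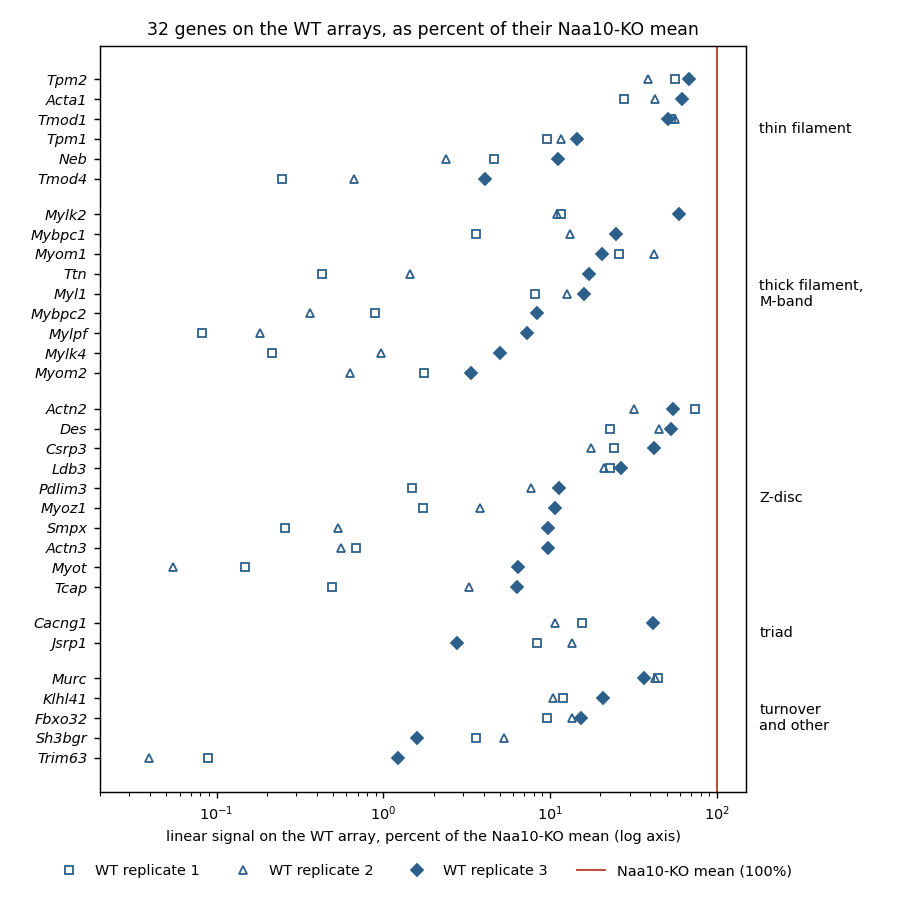
Linear signal on each WT array as percent of the gene's Naa10-KO mean (log axis) for the 32 genes with Naa10-KO above WT and all Naa10-KO arrays above the low mark; squares, triangles and diamonds are WT replicates 1, 2 and 3, and the red line is the Naa10-KO mean. The choice of genes places all WT symbols to the left of the red line and favours low percentages. The diamond of WT replicate 3 is the rightmost WT symbol in 26 of the 32 rows, with Jsrp1 and Sh3bgr among the rows where it is the leftmost.

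Probe sets of the same gene did not always agree. Of the 43 genes, 15 had more than 1 probe set, and of their 37 other probe sets 25 had the sign of the one used. When every probe set was tested on its own over 45037 probe sets, 0 passed in limma, with 3362 at an unadjusted p under 0.05. Tpm1 had 3 other probe sets, with log2 differences of 3.54 (SE 0.62), 0.28 (SE 0.65) and -0.47 (SE 0.23). The last of these, bright on all arrays, was at 9.69, 10.25 and 10.12 in Naa10-KO and 10.56, 10.61 and 10.32 in WT, so the rise of Tpm1 was not shared by all its probe sets. Averaged over its probe sets, Tpm1 differed by 1.61 (adjusted p = 0.156) and Ldb3 by 2.74 (adjusted p = 0.162).

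Ldb3 had other probe sets at 5.56 (SE 1.06) and 0.56 (SE 0.26), both higher in Naa10-KO. Tpm2 had others at 4.30, 1.45 and 1.16, and the 4 others of Tpm3 lay between -0.44 and -0.33. For Trdn, the probe set with the highest mean differed from most of the rest. Its 5 others had differences of 5.45, 3.26, 1.69, 1.66 and -0.58, and the first of these was at 6.82, 6.86 and 7.28 in Naa10-KO, against 0.57, 0.81 and 3.21 in WT (SE 0.75, adjusted p = 0.174 over all probe sets). Averaged over its probe sets, Trdn differed by 1.80 (adjusted p = 0.580), so its direction depends on the probe set. Ttn, with 6 probe sets, had 5.37 and 1.42 at the next highest and -0.72 at the lowest. Probe sets of Sh3bgr (0.52 and -1.38 beside the 5.0 used), Myl3 (4.76 and 0.10 beside 2.13) and Myom2 (5.54, 4.64 and -1.73 beside 6.00) disagreed as well. Fbxo32 had others at 2.96 and 0.66 beside the 2.86 used. The probe set at 0.66 was bright on all arrays, and its groups overlapped.

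**Figure D5:**
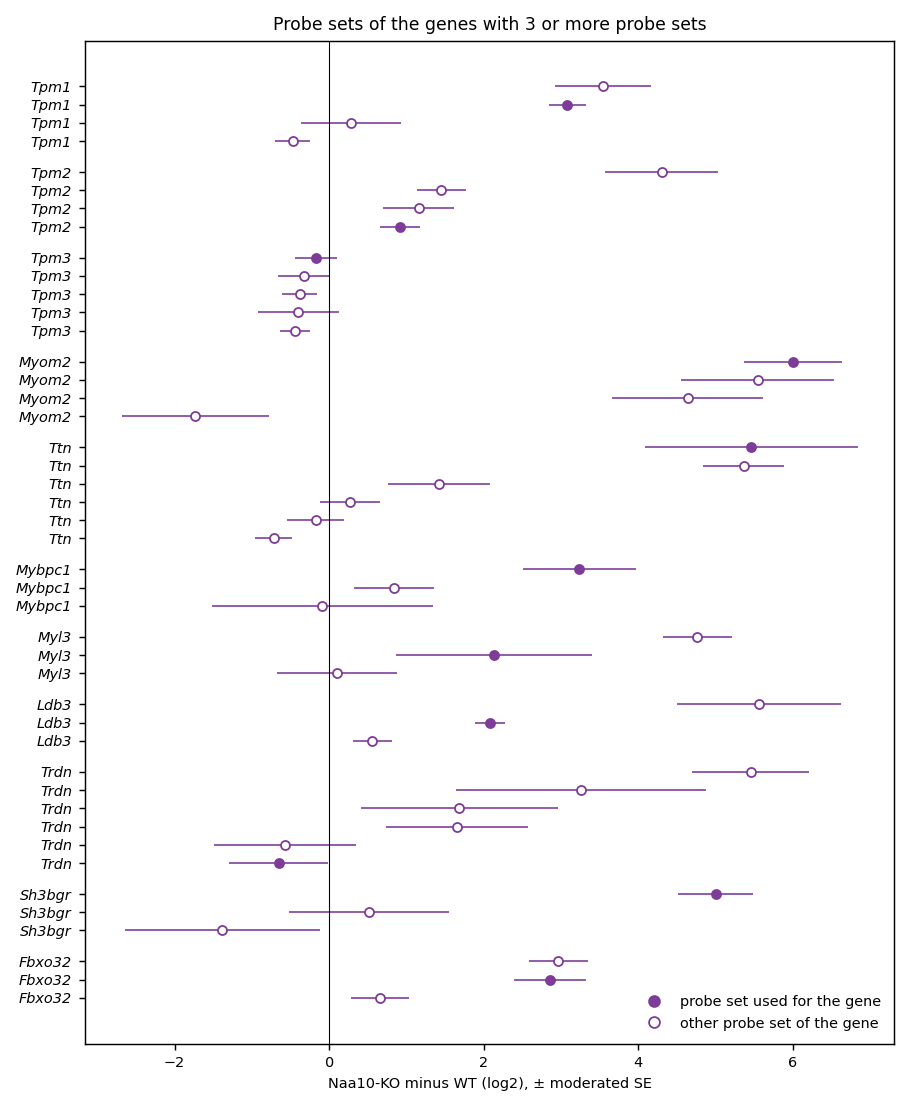
Log2 difference, Naa10-KO minus WT (x axis), with moderated SE for the 44 probe sets of the 11 genes that had 3 or more, with a row per probe set; filled points are the probe sets used for the genes and open points the others. Open points of Tpm1 lie on both sides of 0, between -0.47 and 3.54, and the filled point of Trdn at -0.65 lies below all 5 of its open points.

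Smooth muscle and pericyte markers (15 of 15 measured) had a median log2 difference of -0.31, with summed signals of 30825 to 50922 in Naa10-KO and 52325 to 59620 in WT and 0 past the threshold. Mylk, the smooth muscle light chain kinase, differed by -1.11 and Synpo2, an actin-binding protein, by -0.76. Heart markers (11 of 12 measured) had a median of -0.85, sums of 2341 to 3035 in Naa10-KO and 3812 to 4248 in WT, and 0 past the threshold. That median is the value of Myl7, which was low on all 6 arrays, and Myl4 alone made up 89.9% to 93.2% of the sums in Naa10-KO and 90.5% to 94.6% in WT. Heart genes with the smallest p were Myl4 and Mybphl, a cardiac myosin-binding protein (-1.85, adjusted p = 0.503). Myl4 is an atrial and embryonic light chain, at 11.04, 11.35 and 11.41 in Naa10-KO and 11.91, 11.78 and 11.89 in WT. Of the 11 heart markers, 5 (Myh6, Tnni3, Tnnt2, Nppa and Myl7) were below the low mark on all 6 arrays. Nppb, Ryr2, Nkx2-5, Gata4 and Mybphl were above it on some arrays, with Nppb up to 6.70 in Naa10-KO and Ryr2 up to 6.69 in WT.

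White adipocyte markers (13 of 15 measured) were bright in both genotypes, with sums of 329302 to 376611 in Naa10-KO and 312613 to 405275 in WT, a median of -0.11 and 0 past the threshold. Adiponectin, Adipoq, was at 15.75, 15.81 and 15.57 in Naa10-KO and 15.58, 15.46 and 15.78 in WT, bright on every array of both genotypes. Brown and beige adipocyte markers (12 of 12 measured) had a median of 0.44, with sums of 5024 to 9373 in Naa10-KO and 2375 to 2788 in WT and 0 past the threshold, and Ucp1 differed by 6.17 (adjusted p = 0.0713) and Cidea by 2.10 (adjusted p = 0.318). Medians were -9.92e-04 for fibroblasts (8 of 10 measured), -0.01 for endothelium (8 of 8) and 0.08 for macrophages (8 of 8), each with 0 past the threshold. The 2 with the smallest p were Pdgfra (0.60) and Dpp4 (0.35) for fibroblasts, Pecam1 (0.33) and Tek (0.27) for endothelium, Trem2 (-2.80) and Cd68 (-0.39) for macrophages, and Lep (-0.33) and Cidec (-0.33) for white adipocytes, all as log2 differences. The part of any of these cell types in the results was not tested.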

How the data were processed

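RNA of inguinal fat from 3 Naa10-KO and 3 WT mice was labelled with biotin from 3 µg of total RNA and hybridised to 1 array per mouse, per the labels' protocols. Per array, the authors deposited log2 signals of 45101 probe sets. Their linear mean after 2% trimming at both ends is 500 throughout, and the software that made them is not given in the sources. The log2 values were used as deposited, with no filter on low values. Labels do not say whether animals shared a litter or a day, and the number of arrays limits the precision. Array pairs correlated at 0.903 to 0.917, so none was a copy of another.

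Gene names came from GEO's 2016 annotation of the platform, in which 34945 probe sets have 1 gene, 932 several and 9160 none. Entrez identifiers of 34741 matched a RefSeq gene table of GRCm38.p6. The test was limma's lmFit and eBayes (limma 3.58.1, R 4.3.3) at default settings, 2-sided, with a term for genotype alone, Benjamini-Hochberg adjustment over all 18193 genes and a threshold of 0.05. Of these steps, only the limma fit was run on simulated data, where the mean estimates of added differences were checked. The choice of probe sets and the counts of members were not part of that check.

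The members, the isoform pairs and the 11 fixed lists were chosen with earlier results of these data known, so lists are described by counts and medians and carry no test. Per-array values are given for members past the threshold, for those with the smallest p, the highest mean or the widest WT range in each role, for those lower in Naa10-KO, and for isoform pairs and tropomyosins. Per-array values of other genes, and single values of further listed genes, were added after they were seen. In the lists, the 2 genes with the smallest p were named where their list is described. Alternatives were quantile normalization, centring, a filter on low values, low values raised to the median, the mean of all probe sets, x_at and s_at probe sets left out, trend and robust options, array weights, a replicate block, an unmoderated test, another threshold and each array left out. Testing each probe set on its own was added after seeing the data.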

Additional observations from a re-analysis of the deposited data

How the results depend on the processing

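The median log2 difference of the members, 2.84 as reported, was 1.83 over the same 43 once low values were raised to the low mark. Over the 42 then tested, without Mybph, the raised median was 1.95. In the other settings, the fits with 1 array left out among them (2.46 to 3.15), the median log2 difference moved by less than the median SD within groups, 0.87. Genes with all Naa10-KO above all WT arrays numbered 32 to 34 under the 6 settings that change the values. The median WT range, 1.79, was 0.32 with low values raised. Members past the threshold, 2 as reported, numbered 24 with low values raised (of 42 then tested) and 16 with trend and robust options. There were 15 with the filter on low values (of 37 then tested), 6 at an adjusted p of 0.10 and 4 with array weights. Higher calls over all genes were then 104 of 13264, 102 of 18193, 75 of 11795, 40 of 18193 and 27 of 18193, in that order. The filter kept genes whose higher genotype mean was at or above the low mark. Trim63 and Tmod4, among the 15, passed it through Naa10-KO alone, so the 15 are no independent support. The members past the threshold were 0 in limma with the mean of all probe sets, the replicate block and each probe set tested on its own. They were also 0 in the unmoderated test. Members at an unadjusted p under 0.05 numbered 33 for the mean, 34 for the block and 32 for the unmoderated test. All genes at that p, in either direction, numbered 1491, 1276 and 1861 of 18193. With 1 array left out, members past the threshold numbered 0 to 10, and higher calls over all genes 0 to 29. At an unadjusted p under 0.05 there were 30 to 33 members, and 1220 to 1727 of all genes in either direction. Whole-table calls with the block and in the unmoderated test were 0 as well. Same-numbered arrays of the genotypes did not deviate together (correlations of -0.0067, -0.0057 and -0.031), so the replicate block is no paired analysis here. The cause of these shifts in counts was not tested. Of the 43 members, 38 kept their sign in every setting that tested them, 35 of these in 16 settings and 3 (Myl3, Ankrd2 and Cacna1s) in 15, since the filter on low values removed them. Trdn (1.80) and Jph1 (-0.01) turned with the mean of all probe sets, and Tpm3 (0.02), Mybph (0.33) and Myoz2 (-0.08) without Naa10-KO replicate 1. Signals below the median of all probe sets limit every fold whose WT arrays lie there.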
